A study of Homo sapiens with 33 samples.

Results

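Su-DHL1 cells in which a short hairpin RNA (shRNA) against the kinase gene ALK was switched on were compared with the same cells left uninduced. The comparison rests on 6 of the series' 33 samples, chosen by their titles: 3 arrays of Su-DHL1 cells carrying the ALK hairpin A5 for 72 h with doxycycline (1 ug/ml) and 3 arrays of the same cells at 72 h without it. Every one of the 22215 gene probe sets was considered, and 9097 genes were bright enough to be tested. Su-DHL1 is an established human cell line from ALK-positive anaplastic large cell lymphoma (ALCL), which arises from T cells. The other samples are TS cells, a second ALCL line, with the hairpin A5 at 72 h or 84 h, with a mutated hairpin (A5M) at 84 h, or after 6 h with or without small-molecule compounds. In Su-DHL1 the mutated hairpin was not among the groups, so an effect of doxycycline or of hairpin expression as such cannot be told apart here from an effect of ALK loss. Whether the 3 replicates of a group came from separate cultures is not in the labels. The p-values therefore cover no more than the spread among replicate arrays, which can be technical. That spread was estimated jointly over the 21 hairpin arrays, most of them of TS cells.

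ALK is a receptor tyrosine kinase that lymphoid cells normally do not express. In ALCL a chromosomal translocation, most often with the nucleophosmin gene NPM1, puts the kinase domain under another gene's promoter and makes it constantly active. The fusion kinase is known to signal through STAT3, through RAS and ERK, and through PI3K and AKT. ALCL cells are also known for low T-cell receptor components beside a cytotoxic, CD30-positive phenotype.

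The values are MAS5 signals, a brightness per probe set on a linear scale, which the authors' processing brought to a common level per array. Over the 6 arrays the trimmed mean was 200.07 on each, and replicates correlated at r = 0.977 to 0.984. Median signals did not overlap between the groups, at 61.9 to 69.3 with doxycycline and 56.1 to 58.3 without. Control probe sets for the 3' and 5' ends of ACTB gave a ratio of 1.36 ± 0.08 (SD, n = 3) with doxycycline and 1.39 ± 0.03 without, and those of GAPDH 0.863 ± 0.033 and 0.875 ± 0.020, so these signs of RNA quality overlapped. Uninduced Su-DHL1 cells carried CD30 and cytotoxic markers: the signal was 1421 ± 113.8 for CD30 (TNFRSF8), 5291 ± 382.3 for granzyme B (GZMB) and 4177 ± 297.3 for perforin (PRF1). Of the T-cell markers, CD3D gave 628.8 ± 29.1, CD3E 65.5 ± 6.9 and CD2 35.9 ± 4.9, while CD3G, CD7 and CD28 were too dim to be tested. CD5 gave 158.3 ± 34.0, CD4 47.6 ± 15.5 on its brighter probe set and CD247 14.5 ± 8.8. The leukocyte marker CD45 (PTPRC) gave 492.6 ± 50.9 on its brightest probe set. Fold changes below are differences of log2(signal + 11), which understates the change of dim genes. The ± beside a log2 fold change is the standard error of the linear model (limma, 3 arrays a group). Its estimate of spread comes from all 21 hairpin arrays of both lines, not from the 6 Su-DHL1 arrays alone.

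ALK itself fell in the induced cells. The signal of its brighter probe set was 631.3, 651.3 and 629.0 with doxycycline and 2745.3, 2967.3 and 3183.9 without. The groups were far apart, a 4.58-fold fall (log2 fold change -2.20 ± 0.11, limma adjusted p = 6.08e-13). The other ALK probe set fell from a mean of 882.8 to 171.1. NPM1, whose promoter drives the common fusion transcript, fell on all 3 of its probe sets, by 0.45 ± 0.08 and 0.50 ± 0.09 on those not used in the fit per gene (limma adjusted p = 0.000273 and 0.000283 over probe sets). The brightest probe set gave the smallest change (-0.21 ± 0.07, limma adjusted p = 0.0356). That call was lost when any one array except induced replicate 2 was left out, with adjusted p up to 0.127. CEBPB, a transcription factor, fell by 0.75 ± 0.09 on the log2 scale. BCL2A1, an anti-apoptotic member of the BCL2 family, fell by 1.43 ± 0.11.

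Of the 9097 genes, 2238 passed the test at an adjusted p below 0.05 (24.6%). These were 1264 genes with a higher level in induced cells (13.9%) and 974 with a lower one (10.7%). Changes of at least 2-fold were seen for 207 genes upward and 111 downward, and the median log2 fold change over all genes was 0.08. The excess of rises depended on the scaling of the arrays. Of the called genes 56.5% were higher here, and 50.8% after quantile normalization, where the median over all genes was 0.0058. Induced and uninduced values did not overlap for 3617 genes (39.8%). Fewer cells of a state and less RNA per cell cannot be told apart in such bulk samples.

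**Figure D1:**
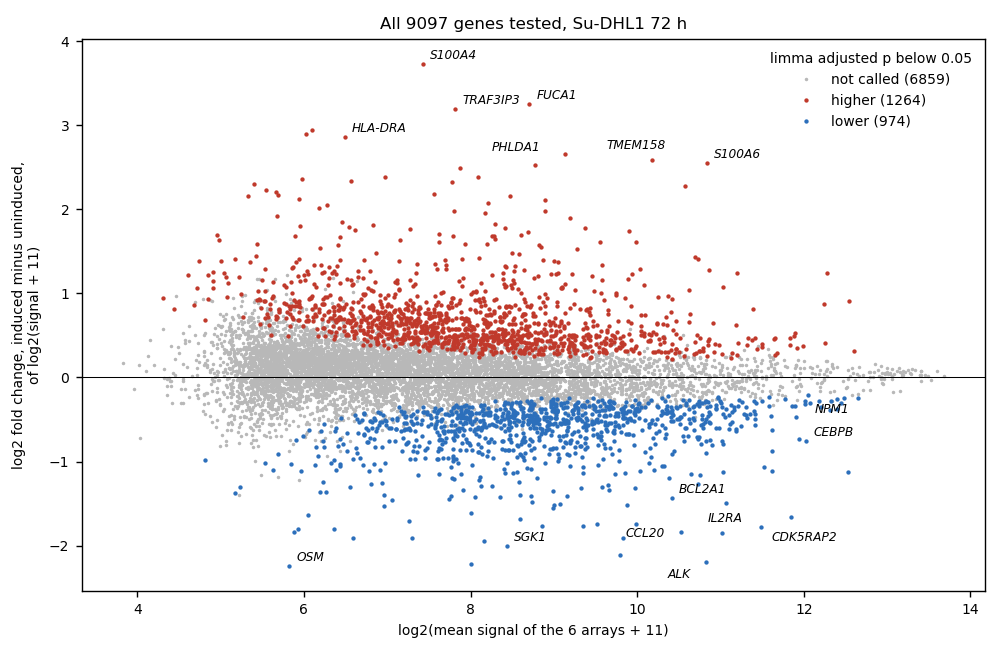
Log2 fold change of all 9097 genes (y axis) against the log2 of their mean signal over the 6 Su-DHL1 arrays (x axis). The 1264 genes called higher are red and the 974 called lower are blue. S100A4, at 3.72, lies highest, and OSM, at -2.24, lies lowest among the called genes.

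Several of the largest rises were in genes with a dim signal in uninduced Su-DHL1 cells. S100A4, a calcium-binding protein with a known role in cell movement, gave signals of 308.5, 301.3 and 316.7 with doxycycline and 17.5, 21.1 and 4.5 without. The induced arrays all stood far above the uninduced ones, which lay below their arrays' 40th percentile (34.7 to 44.2 over the 6 arrays), and the log2 fold change was 3.72 ± 0.22 (limma adjusted p = 1.10e-11). Its relative S100A6 started from a clear level. S100A6 rose from 606.5, 536.1 and 437.2 to 3272.9, 3239.0 and 2839.4 (2.55 ± 0.12). FUCA1, the lysosomal enzyme that removes fucose from glycoproteins, rose from 76.2, 61.7 and 68.0 to 784.0, 782.9 and 668.7, a change with the smallest p-value among the leading genes (3.25 ± 0.10, limma adjusted p = 7.56e-17). FUT7, a fucosyltransferase that builds the selectin ligand sialyl Lewis x, rose from 5.6, 2.0 and 7.0 to 112.4, 102.7 and 114.4 (2.94 ± 0.20). In each of these 4 genes the induced and uninduced arrays formed separate groups, which the choice of leading genes required.

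Several further leading genes belong to lymphocytes. HLA-DRA, the alpha chain of HLA-DR on antigen-presenting and activated T cells, went from 15.2, 8.1 and 9.3 to 148.5, 165.1 and 126.5 (2.86 ± 0.14). GPR171, a G protein-coupled receptor of lymphocytes, went from 4.6, 3.9 and 4.2 to 80.6, 123.2 and 108.0 (2.90 ± 0.28). TRAF3IP3, a TRAF3-interacting protein of lymphocytes, rose from 16.5, 48.7 and 41.5 to 427.9, 367.5 and 382.9 (3.19 ± 0.19). Of its other 2 probe sets, the brighter rose too, from a mean of 53.1 to 329.4 (2.41 ± 0.20), and a dim one did not pass the test (0.36 ± 0.21). All 3 genes were near or below the 40th percentile of their arrays without doxycycline and clearly above it with it. LAPTM5, a lysosomal protein of blood cells that lowers antigen receptor levels, rose by 2.49 ± 0.12, and IL21R, a cytokine receptor chain, by 2.33 ± 0.29. The guanine nucleotide exchange factor DOCK10 rose by 2.36 ± 0.31. PTPRC, the pan-leukocyte phosphatase CD45, rose on all of its 3 probe sets, by 1.00 ± 0.16 on the brightest.

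The remaining genes among the 15 largest rises were PHLDA1 (2.65 ± 0.16), TMEM158 (2.59 ± 0.13), AHNAK (2.53 ± 0.12), CLIP2 (2.39 ± 0.30) and IQGAP2 (2.38 ± 0.12). PHLDA1 and TMEM158 are known to be induced by growth factor and RAS signalling in other cells. PHLDA1 gave 897.7, 994.5 and 965.5 against 108.9, 172.1 and 151.9 uninduced. TMEM158 gave 1857.0, 1846.4 and 2224.1 against 282.8, 337.7 and 338.0. Neither gene had an induced array near the uninduced ones. AHNAK is a large scaffold protein under the plasma membrane and IQGAP2 binds actin and small GTPases.

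**Figure D2:**
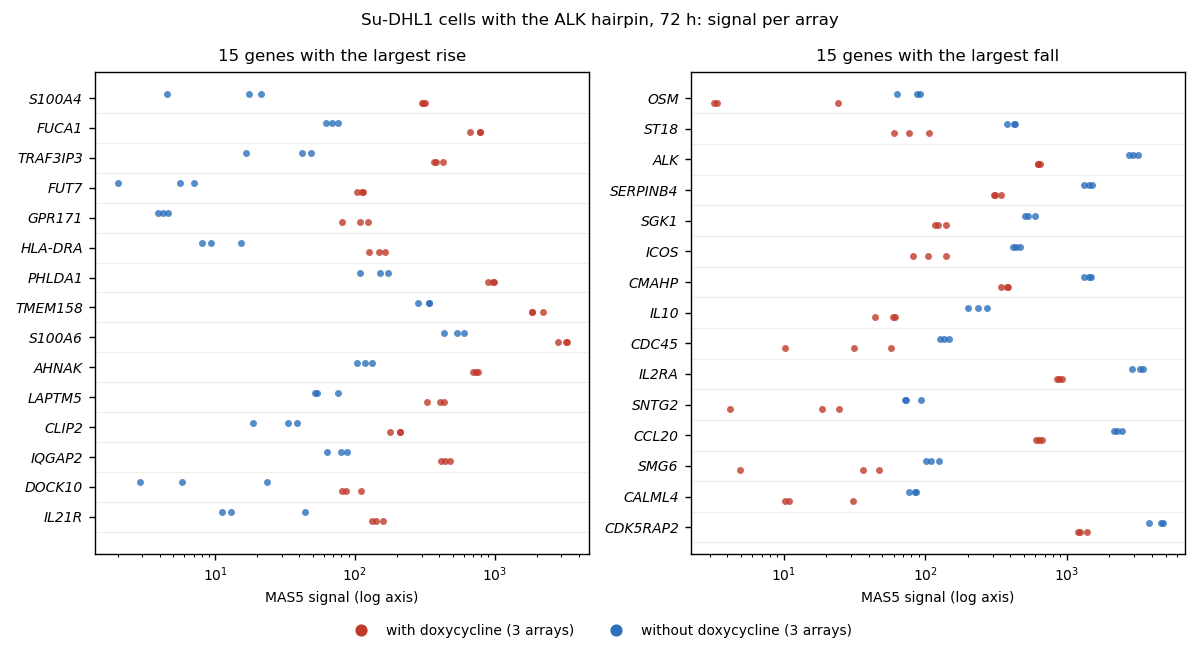
MAS5 signal on each of the 3 induced (red) and 3 uninduced (blue) Su-DHL1 arrays, on a log axis, for the 15 called genes with the largest rise and the 15 with the largest fall. Only genes whose induced and uninduced values did not overlap could be chosen, so the points are separate in all 30 genes by that rule. ALK lies at 629.0 to 651.3 with doxycycline and 2745.3 to 3183.9 without.

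Among the 15 largest falls were genes of cytokine signalling. OSM, which encodes the cytokine oncostatin M, fell from 91.9, 63.0 and 88.4 to 3.2, 3.4 and 24.2 (-2.24 ± 0.32, limma adjusted p = 1.34e-05). IL10, an immunosuppressive cytokine, fell from 235.2, 274.1 and 202.7 to 61.8, 59.5 and 44.5 (-1.91 ± 0.18). CCL20, the chemokine ligand of CCR6, fell from 2478.0, 2147.9 and 2269.8 to 635.4, 668.6 and 603.6 (-1.83 ± 0.10). In these genes no induced array reached the lowest uninduced one, which the choice of the 15 required. IL2RA, the interleukin-2 receptor alpha chain (CD25), fell from 3316.3, 2880.9 and 3473.3 to 922.8, 860.4 and 879.2 (-1.84 ± 0.12). ICOS, a costimulatory receptor of T cells, fell from 472.0, 438.8 and 419.9 to 81.8, 105.0 and 140.0 (-1.95 ± 0.14). Both receptors kept signals above the 40th percentile of their arrays after induction.

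The other leading falls had varied roles. SGK1, a kinase activated downstream of PI3K, fell from 593.9, 529.9 and 506.9 to 118.3, 123.1 and 140.9 (-2.0 ± 0.15). SERPINB4, a serine protease inhibitor typical of squamous epithelium, fell from 1331.9, 1436.0 and 1504.5 to 314.1, 307.1 and 344.4 (-2.11 ± 0.19). ST18, a zinc-finger transcription factor, fell from 429.1, 426.9 and 378.4 to 60.2, 77.3 and 106.4 (-2.22 ± 0.28). The groups of these genes lay several-fold apart. CDK5RAP2, a centrosome protein, fell by 1.78 ± 0.17, CMAHP, a transcribed pseudogene, by 1.91 ± 0.11, CALML4 by 1.80 ± 0.25, and CDC45, a component of the replicative helicase, by 1.90 ± 0.35. SNTG2 (-1.84 ± 0.38) and SMG6 (-1.81 ± 0.32) were the least firm of the 15: with a pseudocount of 1 in place of 11 their adjusted p became 0.0899 and 0.117. SNTG2 passed the filter on dim genes through the 3 uninduced Su-DHL1 arrays alone, so its tested groups had to differ, and it was not tested without any one of those arrays. A second probe set of SMG6 fell by 0.48 and did not pass the test.

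Genes of cell division moved downward as groups. Of 42 tested genes of DNA replication and the entry into S phase, 32 fell (76.2%, against 10.7% of all genes), all 42 estimates were below 0, and the median log2 fold change was -0.82. MCM7, a subunit of the replicative helicase, gave 271.2, 293.2 and 260.7 with doxycycline and 679.5, 716.0 and 763.8 without (-1.35 ± 0.12, limma adjusted p = 7.44e-09). MCM5, of the same helicase, fell from 628.8, 529.3 and 693.8 to 172.1, 213.0 and 263.4 (-1.48 ± 0.16). The groups stood apart in both genes. CHAF1B, which places histones on new DNA, fell by 1.63 ± 0.22, GINS1, another helicase component, by 1.42, CDC6, which loads the helicase, by 1.40 and RRM2, a subunit of ribonucleotide reductase, by 1.12.

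Of 47 genes of mitosis and the G2 phase, 39 fell (83.0%, against 10.7% of all genes), 46 estimates were below 0 and the median was -0.57. The individual changes were smaller than in the replication list. ASPM, a spindle pole protein, gave 474.0, 542.2 and 510.5 against 1002.1, 940.5 and 1071.2 (-0.97 ± 0.11, limma adjusted p = 3.81e-07). Cyclin A2 (CCNA2) fell from 690.5, 673.2 and 670.5 to 348.9, 355.8 and 365.9 (-0.91 ± 0.12). The proliferation marker MKI67 fell from 400.2, 454.9 and 470.8 to 252.0, 211.3 and 254.9 (-0.86 ± 0.10). In all 3 genes every induced array lay below every uninduced one. Aurora kinase B (AURKB) fell by 0.90 ± 0.18. Of 18 DNA repair genes, 15 fell (83.3%, median -0.59), with RAD54L at -1.37 ± 0.27 and RAD51AP1 at -1.29 ± 0.18, both of homologous recombination.

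Of 14 inhibitors and D-type partners of the cyclin-dependent kinases, 3 fell (21.4%) and 2 rose (14.3%), against 10.7% and 13.9% of all genes. The 2 that rose were the inhibitor gene CDKN2A (0.49 ± 0.08, limma adjusted p = 0.000116) and CCNG2 (0.82 ± 0.21). The CCNG2 call was lost without induced replicate 3 (limma adjusted p = 0.0514). Cyclin D3 (CCND3) fell from 5135.3, 4648.9 and 4958.8 to 2857.0, 3233.1 and 2777.4 (-0.73 ± 0.08), and its partner CDK4 fell by 0.43. The inhibitor p27 (CDKN1B) gave 333.9, 392.1 and 340.0 against 302.1, 277.1 and 267.2, without overlap but without passing the test (0.32 ± 0.12, limma adjusted p = 0.0551). The inhibitor p21 (CDKN1A) gave 980.6, 757.4 and 838.3 against 1124.8, 1036.2 and 1092.8 (-0.34 ± 0.10, limma adjusted p = 0.0124). This call was lost without induced replicate 2 or without uninduced replicate 1, with adjusted p up to 0.0917.

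The promoters of the cell division genes are shown because their members moved together, with the letters of known cell cycle motifs. Sequences are from RefSeq (GRCh38.p14), and 7461 of the 9097 tested genes matched a promoter by gene ID. In the 300 bases from 250 before to 50 after the start, both strands were searched for an E2F motif (TTTGGCGC, TTTCCCGC, TTTGCCGC or TTTCGCGC), for the CHR element (TTTGAA), for a CCAAT box (written ATTGG on the other strand) and for a STAT motif (TTCNNNGAA). The motifs do not contain one another, though neighbouring matches may overlap. The genes printed are those with the largest change in their list's direction with a match among the 250 bases before the start. Genes on 1 chromosome were left out of this choice, so a gene there with a larger change would not be shown. Only those 250 bases are printed, 5' to 3' on the gene's strand. Capitals mark the matches of the 1 motif named for each gene, and any letters of the other motifs are left in lower case. MCM7 lies at chr7:100101398-100101647 on the minus strand with 2 E2F matches. ASPM lies at chr1:197146670-197146919 on the minus strand with 1 CHR match. CD74, of the MHC class II list described further on, lies at chr5:150412911-150413160 on the minus strand with 1 CCAAT match.
MCM7: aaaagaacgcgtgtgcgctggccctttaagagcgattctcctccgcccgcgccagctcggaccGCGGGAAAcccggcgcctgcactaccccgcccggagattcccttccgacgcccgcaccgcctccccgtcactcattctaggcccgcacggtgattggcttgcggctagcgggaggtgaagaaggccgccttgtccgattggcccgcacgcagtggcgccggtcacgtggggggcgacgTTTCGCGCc
ASPM: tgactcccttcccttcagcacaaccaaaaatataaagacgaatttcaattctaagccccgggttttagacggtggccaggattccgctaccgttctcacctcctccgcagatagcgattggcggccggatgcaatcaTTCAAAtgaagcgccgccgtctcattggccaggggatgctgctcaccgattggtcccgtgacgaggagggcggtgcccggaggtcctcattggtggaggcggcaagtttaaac
CD74: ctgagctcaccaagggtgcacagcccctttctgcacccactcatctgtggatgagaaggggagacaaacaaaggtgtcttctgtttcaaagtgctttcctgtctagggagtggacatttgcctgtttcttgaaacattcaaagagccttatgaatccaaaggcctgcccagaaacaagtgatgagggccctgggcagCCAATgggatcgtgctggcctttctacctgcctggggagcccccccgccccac

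An E2F match was held by 19 of the 38 replication promoters found, against 5.48% of the promoters of tested genes and 3.33% of all 27305 promoters in the table. A CHR match was held by 27 of 39 mitosis promoters (69.2%), against 10.4% of tested genes and 15.4% of all promoters. CHR letters also stood in 5 of 11 class II promoters (45.5%), a list that moved upward. They stood in 1 of 38 replication promoters, 0 of 16 repair promoters and 5 of 27 of the STAT3 list (18.5%). A CCAAT box was held by 30 of the 39 mitosis promoters (76.9%) and by 8 of 11 class II promoters (72.7%), against 37.4% and 35.7%. It was also held by 21 of 38 replication promoters (55.3%), 8 of 16 repair promoters and 13 of 27 of the STAT3 list (48.1%). Of the promoters of D-type cyclins and kinase inhibitors, 2 of 11 held it (18.2%). Neither motif was particular to a single list. By direction, E2F letters stood in 8.86% of the promoters of genes called lower and 3.55% of those called higher, CHR letters in 16.0% and 7.58%, and CCAAT letters in 45.6% and 34.6%. STAT letters stood in 7.54% and 6.27%, and in 2 of 27 promoters of the STAT3 list (7.41%), against 6.38% of tested genes. These are matches of letters in a short window, not binding sites.

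Genes of growth and ribosome production fell too. Of 28 genes of the MYC and ribosome biogenesis list, 21 fell (75.0%, against 10.7% of all genes, median -0.59). MYC, the growth-promoting transcription factor, gave 508.0, 521.8 and 524.2 against 1166.8, 1040.3 and 1288.7 (-1.15 ± 0.09, limma adjusted p = 1.89e-09). MRTO4, an assembly factor of the large ribosomal subunit, fell by 1.42 ± 0.19. ODC1, the first enzyme of polyamine synthesis, fell from 8026.3, 7633.6 and 8660.1 to 3710.9, 3693.8 and 3769.4 (-1.12 ± 0.07). The induced MYC and ODC1 arrays lay close together and well below the uninduced ones. Of 37 cytosolic ribosomal protein genes, 0 passed limma's test, 1 had an unadjusted p below 0.05, and the median was 0.06. Of 17 heat shock and chaperone genes 9 fell (52.9%, median -0.25), among them the HSP90 co-chaperone FKBP4 (-0.62 ± 0.13). Of 31 genes of glycolysis and hypoxia 11 fell (35.5%, median -0.19). Hexokinase 2 (HK2) fell by 1.20 ± 0.13, a call that averaging its probe sets ended (adjusted p = 0.0808). Cholesterol synthesis genes went both ways, with 7 of 17 lower (41.2%) and 4 higher (23.5%). The lanosterol synthase LSS rose by 1.38 ± 0.21 and HSD17B7, of a later step, fell by 1.13 ± 0.09. Of 39 genes of oxidative phosphorylation 7 rose (17.9%) and 1 fell (2.6%), against 13.9% and 10.7% of all genes (median 0.11).

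**Figure D3:**
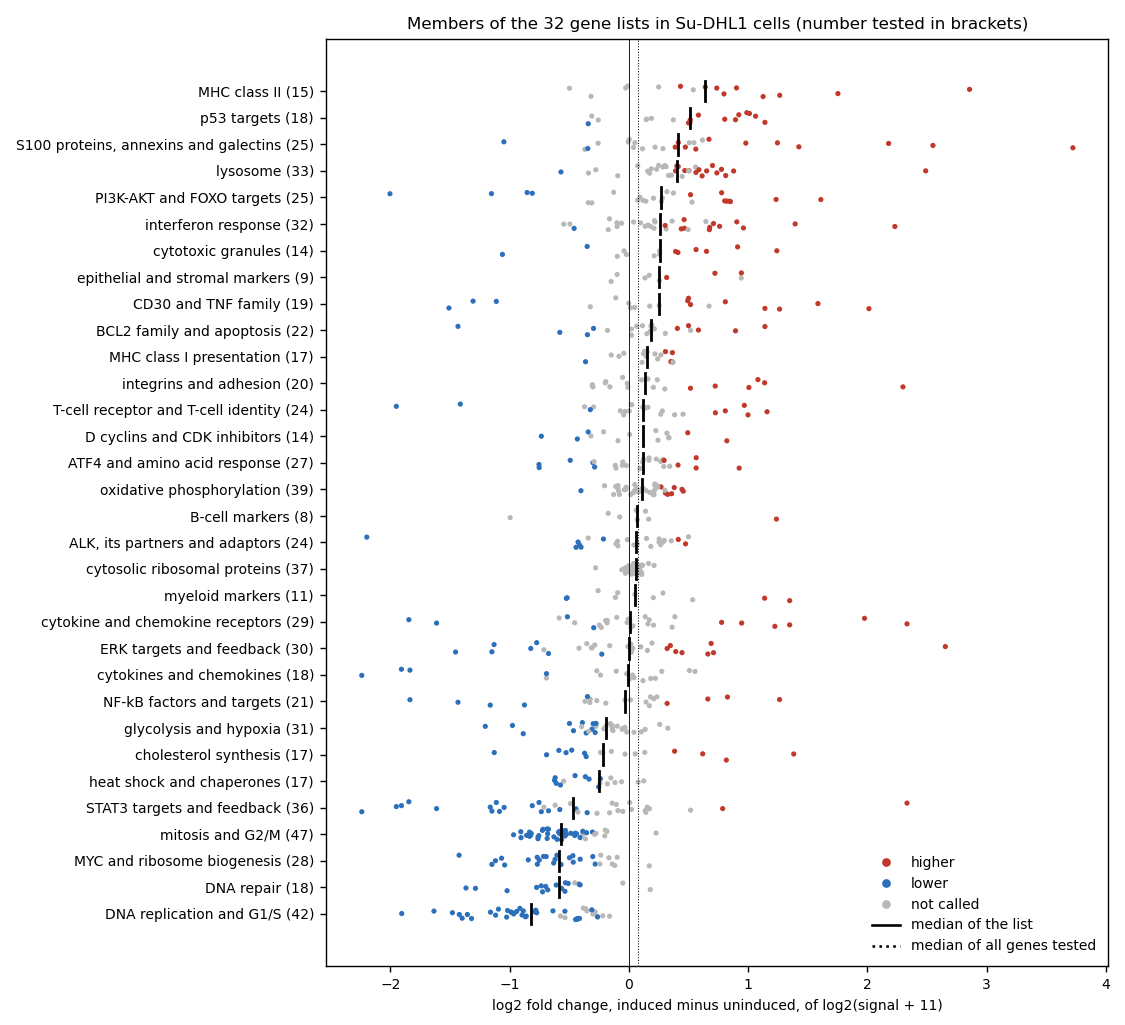
Log2 fold change in Su-DHL1 cells of each tested member of the 32 gene lists (points; red higher, blue lower, grey not called). The black bar is the median of the list and the dotted line the median of all genes (0.08). Medians run from -0.82 for DNA replication to 0.64 for MHC class II.

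Genes downstream of the 3 signalling branches of ALK are given in turn. Of 36 STAT3 targets and feedback genes, 17 fell (47.2%) and 2 rose (5.6%), against 10.7% and 13.9% of all genes (median -0.47). SOCS3, a feedback inhibitor of cytokine receptors, gave 261.2, 176.5 and 183.7 against 451.0, 465.2 and 419.2 (-1.08 ± 0.15). The kinase PIM1 fell from 321.8, 325.0 and 369.0 to 158.3, 165.9 and 150.4 (-1.05 ± 0.10). The interleukin-6 receptor chain IL6R fell by 1.61 ± 0.12, the transcription factors IRF4 and BCL6 by 1.16 ± 0.12 and 0.81 ± 0.14, and STAT3 by 0.44 ± 0.08. OSM, IL10, IL2RA, ICOS and CD30 are members of the same list. IL21R and the mucin MUC1 (0.79) were the members that rose.

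ERK targets and feedback genes split. Of 30 tested, 8 rose (26.7%) and 7 fell (23.3%), against 13.9% and 10.7% of all genes, and the median was 0.00. DUSP2, a nuclear phosphatase of ERK, gave 55.0, 61.8 and 63.3 against 173.2, 195.3 and 181.6 (-1.45 ± 0.18). SPRY4, a feedback inhibitor of RAS signalling, rose from 248.9, 259.7 and 295.4 to 488.0, 434.4 and 413.9 (0.71 ± 0.11). Induced and uninduced arrays did not overlap in either gene. DUSP6, the cytoplasmic ERK phosphatase, gave 877.3, 903.0 and 1032.0 against 1060.0, 1198.1 and 1348.2 and did not pass the test (-0.35 ± 0.15, limma adjusted p = 0.0898). PHLDA1, described above, is the list member with the largest rise.

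Of 25 genes of PI3K-AKT signalling and FOXO targets, 8 rose and 4 fell (median 0.27). TXNIP, an inhibitor of thioredoxin and of glucose uptake, rose from 318.1, 394.8 and 370.1 to 982.5, 1186.2 and 1207.3 (1.61 ± 0.12, limma adjusted p = 3.17e-10). TRIB2, a Tribbles pseudokinase, rose from 262.5, 347.0 and 254.4 to 666.2, 604.0 and 802.9 (1.24 ± 0.12). Both groups of arrays were separate in each. SGK1 (-2.0) was the member with the largest fall. Of 24 genes for ALK, its fusion partners and its adaptors, 6 fell and 2 rose. The phosphatase PTPN11 (-0.43) fell and the adaptor SHC1 (0.48) rose.

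Targets of p53 rose in most cases: 11 of 18 were higher (61.1%, against 13.9% of all genes) and the median was 0.51. FAS, a death receptor, gave 265.0, 325.7 and 328.8 against 101.3, 174.7 and 130.0 (1.14 ± 0.18, limma adjusted p = 5.88e-05). TP53I3, an oxidoreductase, rose by 1.06 ± 0.15, PHLDA3, an inhibitor of AKT, by 1.01 ± 0.19, DDB2, of nucleotide excision repair, by 0.92 ± 0.14 and PMAIP1 (NOXA), a pro-apoptotic BH3 protein, by 0.89 ± 0.14. The list's 1 lower member was CDKN1A. In the BCL2 family and apoptosis list of 22 genes, 5 rose (22.7%) and 4 fell (18.2%), against 13.9% and 10.7% of all genes. The largest fall was in BCL2A1. BCL2A1 gave 642.6, 869.4 and 689.1 against 2008.8, 2000.4 and 1937.3. The anti-apoptotic BCL2L1 (0.52 ± 0.19, limma adjusted p = 0.0530) and MCL1 (0.02 ± 0.10, limma adjusted p = 0.915) did not pass the test.

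Antigen presentation by class II moved upward: 9 of 15 tested genes rose and the median was 0.64. CD74, the invariant chain that guides class II molecules, gave 123.2, 180.2 and 118.8 against 27.7, 35.3 and 37.5 (1.75 ± 0.17, limma adjusted p = 4.46e-08). HLA-DPB1 rose by 1.27 ± 0.15 and HLA-DPA1 by 1.13 ± 0.10, and RFX5, a factor that binds class II promoters, by 0.64. Probe sets for HLA genes can pick up near-identical relatives, so values for single HLA genes, HLA-DRB1 (0.90 ± 0.14) among them, are uncertain. In the class I presentation list 4 of 17 rose (23.5%) and 1 fell (5.9%, against 10.7% of all genes). Interferon response genes were higher in 12 of 32 cases (37.5%, against 13.9% of all genes, median 0.26), led by IFIT1, which binds foreign RNA. IFIT1 rose from 3.9, 7.8 and 3.6 to 80.9, 75.4 and 42.3 (2.23 ± 0.27), and the antiviral ubiquitin ligase TRIM22 by 1.39 ± 0.20.

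Of 24 genes of the T-cell receptor and T-cell identity, 5 rose (20.8%) and 3 fell (12.5%), near the 13.9% and 10.7% of all genes. The median was 0.12, and -0.0169 after quantile normalization. LAT, the adaptor below the T-cell receptor, rose from 45.2, 41.7 and 56.3 to 140.5, 108.6 and 111.6 (1.16 ± 0.25, limma adjusted p = 0.00109). The transcription factor LEF1 fell from 629.2, 589.6 and 590.3 to 208.9, 220.3 and 230.0 (-1.41 ± 0.14). No induced array overlapped with an uninduced one in either gene. CD3D, CD3E, CD2 and CD5 did not pass the test.

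Of 19 cytotoxic granule genes on the array, 14 were tested (median 0.26). Of the 14, 6 rose (42.9%) and 2 fell (14.3%), against 13.9% and 10.7% of all genes. Granzyme A (GZMA) rose from 3927.4, 4000.2 and 4436.8 to 7915.5, 8322.7 and 7084.2 (0.91 ± 0.08), and cystatin F (CST7), which restrains granule proteases, by 1.24 ± 0.10. Granzyme B (GZMB) went the other way, from 5401.1, 4866.2 and 5606.7 to 4032.3, 4334.5 and 4073.7 (-0.35 ± 0.09, limma adjusted p = 0.00676). Perforin (PRF1) rose by 0.41 ± 0.11.

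In the CD30 and TNF family, 8 of 19 genes rose (42.1%) and 3 fell (15.8%), against 13.9% and 10.7% of all genes. CD30 itself (TNFRSF8) fell from 1523.2, 1441.5 and 1298.3 to 706.8, 620.0 and 628.7 (-1.11 ± 0.09, limma adjusted p = 1.61e-09). TNFRSF9 (4-1BB), a costimulatory receptor, fell by 1.51 ± 0.18. The ligands CD70 and TNFSF14 (LIGHT) rose by 1.59 ± 0.13 and 2.01 ± 0.32, and the adaptor TRAF1 rose by 1.26 ± 0.29. TNFSF14 went from 7.2, 23.9 and 25.4 to 105.8, 103.3 and 103.0, so its induced arrays agreed closely while the uninduced ones were dim and scattered. Of 21 NF-kB factors and targets 5 fell (23.8%) and 4 rose (19.0%).

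Among 29 cytokine and chemokine receptors, 6 rose (20.7%) and 4 fell (13.8%), near the 13.9% and 10.7% of all genes. CCR1, an inflammatory chemokine receptor, went from 166.1, 189.3 and 186.3 to 835.3, 653.3 and 747.8 (1.98 ± 0.13), and all 3 induced arrays stood well above the rest. Of 18 cytokines and chemokines 4 fell (22.2%): OSM, IL10, CCL20 and osteopontin (SPP1). Integrins and adhesion molecules rose in 6 of 20 cases (30.0%). The integrin chain ITGB7, which pairs with alpha 4 in gut-homing lymphocytes, rose from 3.7, 3.0 and 2.9 to 68.3, 60.5 and 49.1 (2.30 ± 0.24), and ITGB2, the shared chain of the leukocyte integrins, by 1.08 ± 0.15.

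Of 25 S100 proteins, annexins and galectins, 11 rose (44.0%) and 2 fell (8.0%), against 13.9% and 10.7% of all genes (median 0.42). Beside S100A4 and S100A6, the actin-capping protein CAPG, included in this list, rose by 2.18 ± 0.13, the phospholipid-binding annexin ANXA5 by 1.43 and galectin-1 (LGALS1) by 1.25 ± 0.10. LGALS1 was bright throughout, at 6895.3, 7606.7 and 6492.4 against 3017.5, 2653.1 and 3163.5. Lysosomal genes rose in 15 of 33 cases (45.5%, median 0.40). The tetraspanin CD63 rose by 0.88 ± 0.09 and the acid lipase LIPA by 0.81 ± 0.09, while the protease CTSL fell by 0.57 ± 0.10.

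Markers of other cell types were read on the same arrays. Of 11 tested myeloid markers 2 rose and 2 fell (18.2% each, against 13.9% and 10.7% of all genes). Their summed signal was 2409 to 2756 on the induced and 2874 to 2955 on the uninduced arrays. Of these markers, CSF1R rose by 1.35 ± 0.15 and CD163 fell by 0.52 ± 0.08. Of 8 tested B-cell markers 1 rose (12.5%), the dim VPREB3, and the sums overlapped at 286.3 to 410.4 and 268.3 to 379.4. Of 9 epithelial and stromal markers 3 rose (33.3%), among them ACTA2 (0.94 ± 0.11), with sums of 7406 to 8246 and 5693 to 6863. Below their array's median on all 3 uninduced arrays were 5 of the 8 B-cell, 3 of the 11 myeloid and 3 of the 9 epithelial and stromal markers. Their part in the other results was not tested.

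The same hairpin at the same time in TS cells shares no array with the Su-DHL1 comparison. Both comparisons used the same estimate of spread for each gene. There 3108 genes passed the test (34.2%). Of the 1264 genes higher in induced Su-DHL1 cells, 932 were also higher in TS cells, which is 73.7% of the Su-DHL1 genes and 54.1% of the 1724 TS genes. Of the 974 lower genes, 796 were also lower in TS cells (81.7% of the Su-DHL1 and 57.5% of the TS genes). Opposite calls numbered 6 and 11. Across the 9097 genes the 2 responses correlated at r = 0.739, with genes not being independent replicates.

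The difference between the 2 responses was tested in the same model. It passed for 263 genes (2.89%): 153 where the Su-DHL1 response was the higher (1.68%) and 110 where it was the lower (1.21%). The ACTB ratio did not overlap between the TS groups at 72 h (1.32 ± 0.05 induced, 1.59 ± 0.11 uninduced). With that ratio as a covariate the count was 91, and with only the 12 arrays compared in the fit it was 425. Of the 263 genes, 127 changed the same way in both lines but to a different extent, 17 in opposite directions, 27 passed the test in Su-DHL1 only and 92 in TS cells only.

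By the list medians, cell division genes fell less in Su-DHL1 than in TS cells, though most did not pass the adjusted test of the difference. It passed upward, a smaller fall in Su-DHL1, for 17 of 42 replication genes, 14 of 47 mitosis genes and 7 of 18 repair genes. Over all genes 1.68% passed upward. An unadjusted p of the difference below 0.05, in either direction, was reached by 32 of 42, 37 of 47 and 13 of 18. The median log2 fold changes were -0.82 against -1.55 in TS cells for replication, -0.57 against -1.15 for mitosis and -0.59 against -1.23 for repair. CDC25A, the phosphatase that activates CDK2, had a log2 fold change of -1.16 ± 0.24 in Su-DHL1 and -2.96 in TS cells, a difference of 1.80 ± 0.33 (limma adjusted p = 0.00189), which was lost when the gene's probe sets were averaged (0.83, adjusted p = 0.163). SKA1, of the kinetochore, gave -0.57 in Su-DHL1, which did not pass the test, and -2.29 in TS cells. For the MYC and ribosome biogenesis list the medians were close, -0.59 and -0.62, and 0 of 28 differences passed limma's test (5 had an unadjusted p below 0.05).

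**Figure D4:**
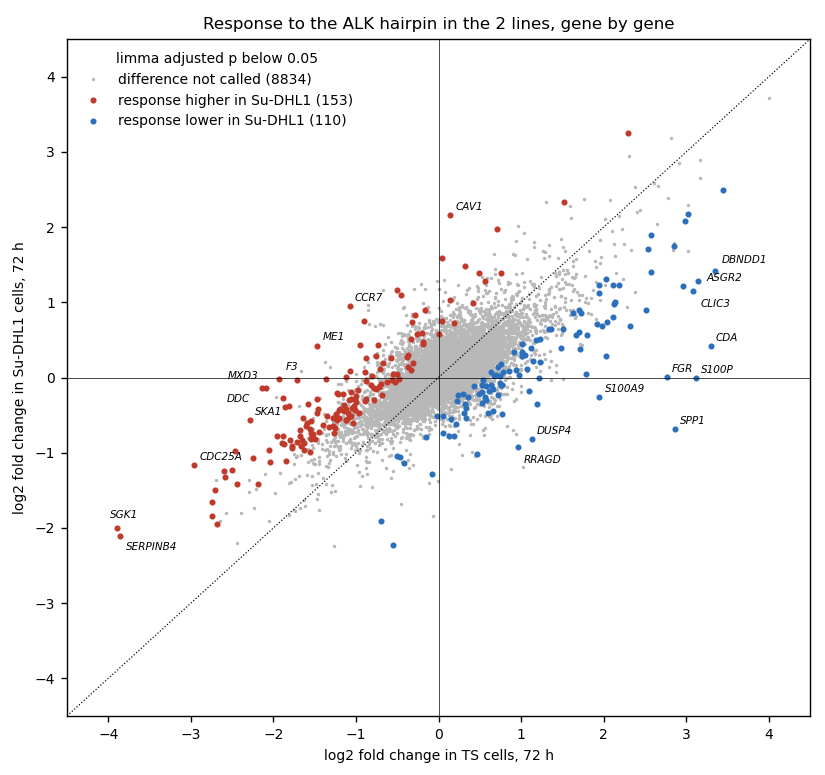
Log2 fold change with the ALK hairpin at 72 h in Su-DHL1 cells (y axis) against that in TS cells (x axis) for 9097 genes, with the diagonal of equal response dotted. The 153 genes with a higher and the 110 with a lower response in Su-DHL1 cells are coloured, and the 20 named genes are marked. SPP1 lies at 2.86 in TS cells and -0.69 in Su-DHL1 cells.

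The most negative differences between the lines were in genes that rose in TS cells. SPP1, which encodes the secreted phosphoprotein osteopontin, fell in Su-DHL1 from 873.1, 916.2 and 942.5 to 514.9, 576.8 and 591.4. In TS cells its mean rose from 368.3 to 2735, a difference of -3.55 ± 0.12 (limma adjusted p = 1.03e-15). S100A9, a calprotectin subunit of granulocytes and monocytes, stayed at 382.4, 391.0 and 406.0 against 439.2, 459.8 and 520.1 in Su-DHL1, which did not pass the test (-0.26 ± 0.15), while its TS mean rose from 684.9 to 2675 (difference -2.21 ± 0.21). FGR, a SRC family kinase of myeloid cells, gave 49.7, 53.2 and 55.1 against 56.1, 38.2 and 65.3 in Su-DHL1 and rose from 103.2 to 761.8 in TS cells (difference -2.76 ± 0.22). The Su-DHL1 groups overlapped in FGR but not in S100A9. S100P (-3.12 ± 0.40) and CDA (-2.88 ± 0.43), a pyrimidine salvage enzyme, had the same pattern, with low signals in Su-DHL1. Over the 11 myeloid markers the median was 0.05 in Su-DHL1 and 0.52 in TS cells. The asialoglycoprotein receptor subunit ASGR2 rose in both lines, by 1.29 ± 0.20 and 3.14 (difference -1.86 ± 0.28). DUSP4, an ERK phosphatase, rose in TS cells, whereas its call in Su-DHL1 (-0.82 ± 0.24) was lost without induced replicate 3 or uninduced replicate 2, with adjusted p up to 0.0880. DUSP6 and SPRY4 also had a lower response in Su-DHL1, with differences of -1.54 ± 0.21 and -1.21 ± 0.15. In the ERK list 6 of 30 differences passed, all in this direction, against 1.21% of all genes.

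In the other direction, CCR7, the lymph node homing receptor, rose in Su-DHL1 from 44.3, 26.3 and 36.3 to 80.3, 76.2 and 76.7 and fell in TS cells from a mean of 189.1 to 83.5. The difference was 2.02 ± 0.20 (limma adjusted p = 5.52e-07), and the induced cells of both lines ended near one level. SGK1 started near one level in both lines and fell further in TS cells, to a mean of 25.03 (difference 1.89 ± 0.21). CAV1, a coat protein of caveolae, was listed at 51.5 to 56.9 on the induced Su-DHL1 arrays and at 5.3 or less on the other 9 arrays of the 2 lines at 72 h. The CAV1 difference (2.02 ± 0.53, adjusted p = 0.0351) was lost without any one of the uninduced Su-DHL1 arrays or the TS arrays. CAV1 passed the filter on dim genes through the 3 induced Su-DHL1 arrays alone, so it had to differ, and without one of them it was not tested. The difference was also lost with a pseudocount of 1 (limma adjusted p = 0.369), the ACTB ratio as a covariate (0.257) or a replicate block (0.112). With no filter another CAV1 probe set stood for the gene, at means of 42.4 induced and 16.5 uninduced in Su-DHL1. The difference on that probe set was 1.01 and did not pass (limma adjusted p = 0.523). DDC (2.0), MXD3 (1.95), F3 (1.91) and ME1 (1.89) were dim in Su-DHL1 and did not pass the test there, so the difference lies in their fall in TS cells. The F3 call was lost without any one of 10 of the 12 arrays.

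**Figure D5:**
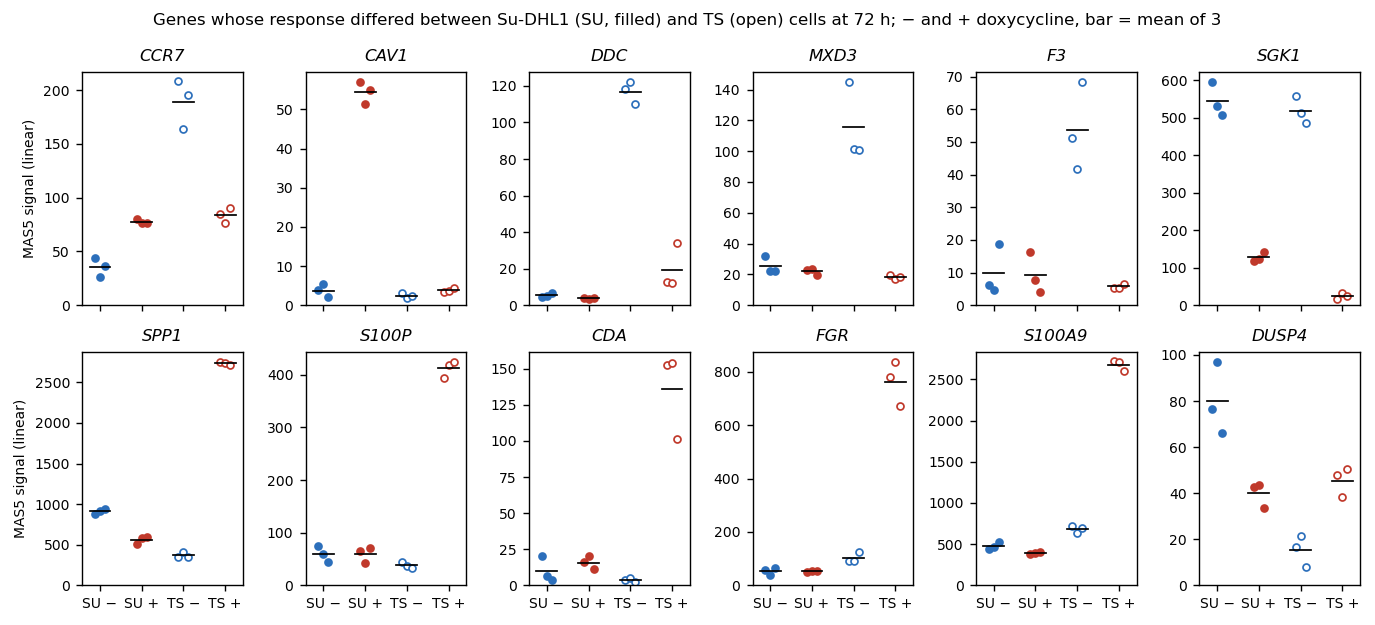
MAS5 signal (linear axis) on each array of Su-DHL1 (SU, filled) and TS (open) cells at 72 h without (-) and with (+) doxycycline, for 6 genes from each end of the difference between the lines. Bars are means of 3 arrays. SPP1 falls to 514.9 to 591.4 in Su-DHL1 cells and rises to a mean of 2735 in TS cells.

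Other differences concerned immune genes. GZMB fell more weakly in Su-DHL1 (-0.35) than in TS cells (-1.58), a difference of 1.23 ± 0.13. HLA-DRB1 and CD74 rose less in Su-DHL1, with differences of -1.61 ± 0.20 and -1.09 ± 0.24. Of 15 class II genes, 4 differed in this direction, against 1.21% of all genes. IL10 and ST18 fell further in Su-DHL1, with differences of -1.21 ± 0.25 and -1.67 ± 0.40. Their TS levels without doxycycline were low, at means of 67.2 and 6.9. LAT rose in Su-DHL1 and did not pass the test in TS cells (-0.51, difference 1.67 ± 0.35). PMAIP1 likewise rose in Su-DHL1 and gave -0.16 in TS cells (difference 1.06 ± 0.19). CDKN1A was higher with the hairpin in TS cells (0.53) and lower in Su-DHL1 (-0.34), a difference of -0.87 ± 0.14 (limma adjusted p = 0.000511).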

How the data were processed

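Gene expression was measured on Affymetrix human gene arrays, 1 per sample. The authors deposited a linear intensity for each probe set, the MAS5 signal per the submitters' processing notes, which name no MAS5 version or settings. Such scaling fixes a common level per array and cannot show a change of total RNA. The 68 control probe sets of 22283 were left out. Platform annotation gave 1 gene symbol for 19065 probe sets, several for 1043 and none for 2107; 19053 gene IDs matched the GRCh38.p14 gene table, used for names only. Signals were taken to log2 after adding 11. A probe set was tested if its signal reached the 40th percentile of the array on 3 or more of the 21 hairpin arrays (15338 did), and the brightest probe set by mean log2 over 33 arrays stood for a gene. limma 3.58.1 (R 4.3.3; a mean per group over the 21 arrays, eBayes with trend, 14 residual degrees of freedom) gave two-sided p-values, adjusted by Benjamini-Hochberg over 9097 genes. The number of arrays limits the precision. The fit was tested on simulated data.

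Genes named are ALK, NPM1, CEBPB and BCL2A1, the 15 highest and 15 lowest called genes without overlap, the 10 highest and 10 lowest differences between lines, and called members of 32 gene lists with the largest changes. Other genes, such as CDKN1B, DUSP6, MCL1, BCL2L1, CDC6, RRM2, SOCS3, PIM1, DDB2, HLA-DRB1, RFX5 and LGALS1, were chosen after their values were seen. The comparison and the lists were chosen with earlier results of these data known. Alternatives were the pseudocount, no filter, quantile normalization, averaging probe sets, only the arrays compared, a replicate block, the ACTB ratio as covariate and leaving out each array. Figures were drawn with matplotlib 3.10.9. The compound-treated and 84 h samples were not compared here.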

Additional observations from a re-analysis of the deposited data

Results flagged for a closer look

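The response to the ALK hairpin at 72 h differed between Su-DHL1 and TS cells for 263 genes by limma's test of the difference itself. The 20 genes with the largest differences that met the naming rule are listed here because their responses differed between the lines by that test; values are log2 response in Su-DHL1 minus that in TS cells. The Su-DHL1 response was the higher for CCR7 (2.02), CAV1 (2.02), DDC (2.0), MXD3 (1.95), F3 (1.91), SGK1 (1.89), ME1 (1.89), CDC25A (1.80), SERPINB4 (1.75) and SKA1 (1.72). It was the lower for SPP1 (-3.55), S100P (-3.12), CDA (-2.88), FGR (-2.76), S100A9 (-2.21), DUSP4 (-1.95), DBNDD1 (-1.94), CLIC3 (-1.93), RRAGD (-1.90) and ASGR2 (-1.86). The ACTB ratio moved with the TS groups. With it as a covariate the differences of CAV1, CLIC3, DBNDD1, DUSP4, F3 and RRAGD no longer passed, with adjusted p of 0.257, 0.0527, 0.284, 0.0809, 0.316 and 0.267, and the other 14 did. CAV1 was tested only because of the arrays where it is high.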

How the results depend on the processing

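The count of genes changed in Su-DHL1 cells stayed between 2097 and 2348 under the other settings and between 1777 and 1927 without one array, and ALK fell by 2.13 to 2.30 on the log2 scale under all of them. With the ACTB ratio as covariate, 1427 genes changed in TS cells (729 higher, 698 lower) and 91 differed between the lines (56 higher, 35 lower). With only the arrays compared, 425 differed (244 higher, 181 lower). The cause was not tested. List medians moved as follows. DNA replication gave -0.71 with a pseudocount of 50. The ERK list gave -0.0886 after quantile normalization and -0.0937 to -0.0137 without one array. The PI3K-AKT and FOXO list gave 0.14 with a pseudocount of 50 and 0.14 after quantile normalization, which gave -0.0169 for the T-cell list. The cytotoxic list gave 0.33 with a pseudocount of 1, 0.17 with 50, 0.14 after quantile normalization, 0.32 with the ACTB covariate and 0.21 to 0.36 without one array. No named call changed direction. The medians of 9 of the 32 lists, each at most 0.12 in size, changed sign under some setting or without some array: ALK partners, B-cell, myeloid, ERK, NF-kB, T-cell, cytokines, their receptors and ribosomal proteins. Of 176 named calls in Su-DHL1, 140 were tested without each array in turn and held, and 135 were tested and held in every fit; of the 20 named differences, 16 and 11. Those lost without some array were CAV1, F3, RRAGD and CLIC3; the RRAGD call was lost in 10 of 12 such fits and the CLIC3 call without uninduced Su-DHL1 replicate 1. The pseudocount of 50 ended the call of SERPINB4 (adjusted p = 0.296), and averaging probe sets those of CDC25A and ME1. A pseudocount of 1 ended those of CAV1, F3, DBNDD1, CLIC3 and RRAGD (limma adjusted p = 0.369, 0.0876, 0.110, 0.118 and 0.063). RRAGD was also lost with no filter (0.0908), quantile normalization (0.055), only the arrays compared (0.0709) or a replicate block (0.0613). F3 was also lost with a replicate block (0.105).

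The deviations of same-numbered induced and uninduced replicates correlated at r = -0.073, 0.071 and -0.144. Those of differently numbered replicates lay between -0.215 and 0.237. With so few arrays these values cannot settle whether same-numbered arrays share a culture or a day. A replicate block gave 2097 changed genes in Su-DHL1, 2972 in TS cells and 220 differences. Probe sets near the 40th percentile of their array limit what can be said of dim genes.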
